A study of Mus musculus with 12 samples.

Results

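The 10 genes of fatty acid uptake and oxidation described here were chosen by symbol: Cd36, Fabp3, Acsl1, Cpt1b, Cpt2, Acadm, Acadl, Acadvl, Hadh and Pnpla2. The choice was made with earlier results of these data known. Shares of these genes set beside shares of all probe sets are therefore descriptions only. The platform annotation gave 11 probe sets to 8 of these 10 genes, among 12422 probe sets in all without the controls, and named none for Acsl1 or Cpt1b. Of the 11, 7 were above the floor of the intensity scale on at least 3 arrays and were tested, 1 each for Pnpla2, Cd36, Fabp3, Cpt2, Acadm, Acadl and Hadh, among 10331 probe sets tested. The study ran total RNA of 3-week-old mouse muscle on 12 arrays of 1 colour, with 3 arrays in each of 4 groups. Dysf_null QF and Dysf_null TA were muscle of dysferlin-deficient mice (C57BL/10-SJL.Dysf, Dysf -/-), and Control QF and Control TA were the same muscles of C57BL/10 mice (Dysf +/+). QF and TA are the labels' own names for the muscles, and the series title sets them out as a proximal and distal pair. The strain name places the dysferlin allele of SJL mice on C57BL/10, so SJL sequence near Dysf may differ from the controls too. Dysf lies on chromosome 6. None of the 8 genes with a probe set does, but 5 of the other measured genes of fatty acid use, read further below, do. The labels do not tie the arrays numbered 1, 2 and 3 to different mice. The p-values therefore rest on an array-to-array spread that may be technical.

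Dysferlin is a membrane protein of muscle fibres that takes part in the resealing of torn membranes, and its loss causes muscular dystrophy. Muscle burns fatty acids that come from the blood or from droplets of triglyceride inside the fibre. Pnpla2 cuts the first fatty acid from stored triglyceride, Cd36 brings fatty acids across the cell membrane and Fabp3 binds them in the cytosol. Acsl1 joins them to coenzyme A, Cpt1b and Cpt2 carry them into mitochondria as carnitine esters, and Acadvl, Acadl, Acadm and Hadh catalyse steps of beta-oxidation, which shortens the chain. Most of these genes are textbook targets of the nuclear receptors of the PPAR family.

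The arrays carried no probe set named Dysf, so the genotype could not be checked on its own transcript. Fast fibre genes were bright in all 4 groups, as the muscle label says, but this cannot tell QF from TA. The summed intensities of 12 fast fibre genes were 154500 to 160700 in Dysf_null QF and 167300 to 168700 in Control QF. In TA they were 148600 to 154800 in Dysf_null and 156100 to 159700 in Control. Within each muscle the Dysf_null sums lay below the Control sums. Over both muscles 9 of the 12 differences were negative and 3 positive, and 0 were called. Both QF arrays numbered 2 stood apart: their median correlation with the other arrays was 0.876 for Dysf_null and 0.866 for Control, against 0.926 to 0.959 for the other 10 arrays. In bulk muscle, fewer cells of a type and less RNA per cell cannot be told apart. Samples with the same number in 1 muscle deviated together, more in QF than in TA. Values from a fit with the replicate number as a block are therefore given where they change a call. This pairing was inferred from these same data and is weak in TA.

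The promoters of the 3 genes that were lower on every Dysf_null QF array than on every Control QF array are shown first, as the 250 bases before the start site given by RefSeq (GRCm38.p6), 5′ to 3′ on the gene's strand. Capitals mark AGGTCA, the half-site that nuclear receptors bind, and GGGCGG, the GC box bound by Sp1, both on either strand (TGACCT and CCGCCC).
Pnpla2: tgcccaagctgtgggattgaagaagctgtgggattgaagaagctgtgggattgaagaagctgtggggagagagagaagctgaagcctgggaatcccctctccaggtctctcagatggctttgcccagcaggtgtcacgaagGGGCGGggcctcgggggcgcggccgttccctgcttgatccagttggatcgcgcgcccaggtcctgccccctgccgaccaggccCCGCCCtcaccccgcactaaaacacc
Cpt2: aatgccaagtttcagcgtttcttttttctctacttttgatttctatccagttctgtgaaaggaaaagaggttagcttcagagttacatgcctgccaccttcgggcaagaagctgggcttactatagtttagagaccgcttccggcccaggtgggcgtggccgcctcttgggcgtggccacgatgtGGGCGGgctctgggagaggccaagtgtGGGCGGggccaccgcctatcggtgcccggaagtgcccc
Acadm: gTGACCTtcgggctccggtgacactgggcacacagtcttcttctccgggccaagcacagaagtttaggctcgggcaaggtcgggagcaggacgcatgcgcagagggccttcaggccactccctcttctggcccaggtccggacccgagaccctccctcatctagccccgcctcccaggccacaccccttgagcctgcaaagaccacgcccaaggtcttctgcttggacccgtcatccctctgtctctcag
They are chr7:141454938-141455187 (plus strand) for Pnpla2, chr4:107923590-107923839 (minus strand) for Cpt2 and chr3:153944644-153944893 (minus strand) for Acadm. The half-site was present in the windows of 3 of the 9 genes with a promoter entry (Cd36, Acadm and Acadvl), and in 14% of 32851 windows of the same length. In Acadm it starts at position -249, counted from the start site, as part of the longer AAGGTCA, which 4.08% of windows hold. The GC box was present in 6 of the 9 genes, and in 32.7% of windows. Neither TGTTTAC, a motif of FoxO factors (3.17% of windows), nor CACGTG, a form of the E-box (6.02%), was found in any of the 9. Other forms of the E-box were not searched for, and CAGGTG, another such form, stands in the printed Pnpla2 and Cpt2 windows. A match is a match of letters only, and Cpt1b had no entry.

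Pnpla2 was the only one of the 7 measured genes that passed the test, and it was lower in dysferlin-deficient muscle. Averaged over QF and TA it fell by 0.54 on the log2 scale, to 0.686 of the Control intensity (95% interval 0.587 to 0.8, limma, adjusted p = 0.0219). That is 1 of 7 genes called, against 1.09% of all probe sets called in that comparison, and 0.31% called lower. In QF 0 of the 7 were called, against 0.455% of all probe sets, and in TA 0, against 0.407%. With the replicate block 1 of the 7 was called in QF, Pnpla2, against 2.64%, and 0 in TA, against 1.54%.

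Pnpla2 encodes adipose triglyceride lipase, which starts the breakdown of stored triglyceride. Its deposited intensities were 1381, 1222 and 1247 on the Dysf_null QF arrays, against 2513, 1886 and 2104 on the Control QF arrays. In TA they were 1025, 1409 and 1099 on the Dysf_null arrays, against 1398, 1752 and 1596 on the Control arrays. The QF groups did not overlap, and in TA the highest Dysf_null array lay just above the lowest Control array.
On the normalized log2 scale the means were 10.40 ± 0.116 in Dysf_null QF and 11.10 ± 0.169 in Control QF, and 10.16 ± 0.226 in Dysf_null TA and 10.56 ± 0.170 in Control TA (SD, n = 3 each). The difference in QF was -0.70 ± 0.15 (SE), a ratio of 0.617, with an adjusted p of 0.066 from limma, and 0.00268 with the replicate block. In TA it was -0.39 ± 0.15, a ratio of 0.762, with an adjusted p of 0.751, and 0.0517 with the block. Subtracting the QF difference from the TA difference gave 0.31 ± 0.21 (95% interval -0.14 to 0.75, adjusted p = 1), so the 2 muscles were not shown to differ.
With the block the average had an adjusted p of 0.000897, where 4.59% of all probe sets were called. The average was not called when both QF arrays numbered 2 were left out (-0.56, adjusted p = 0.0617), nor when any 1 of 7 of the 12 arrays was left out: Dysf_null QF 1 or 3, Control QF 1, Dysf_null TA 1 or 3, or Control TA 2 or 3 (adjusted p 0.0522 to 0.0823). All 68 genotype values of Pnpla2 computed under other settings were below 0.

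**Figure D1:**
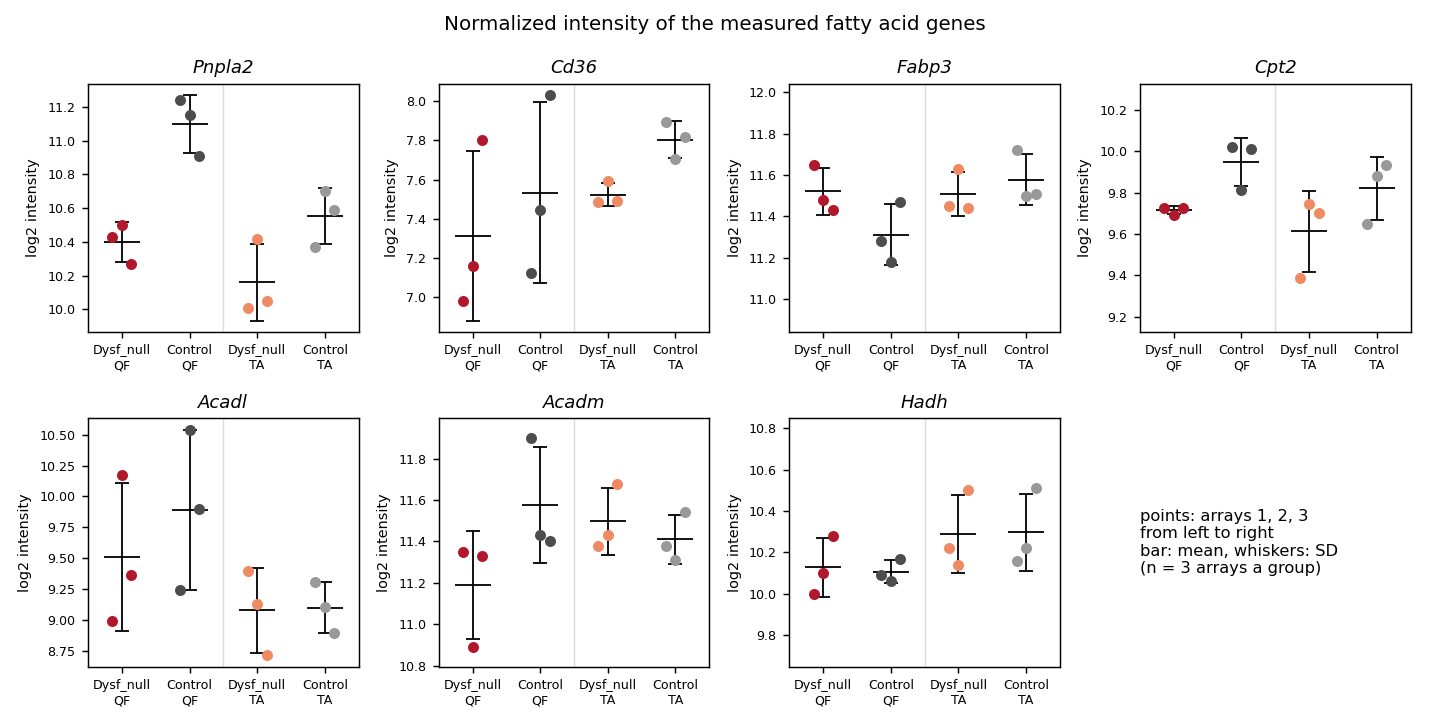
Normalized log2 intensity of the 7 measured genes on each of the 12 arrays, by group; points are arrays 1 to 3 from left to right, bars the mean and whiskers the SD (n = 3). Pnpla2 in QF lies between 10.27 and 10.50 in Dysf_null and between 10.91 and 11.24 in Control, while Fabp3, Hadh and Cd36 overlap between genotypes in QF.

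Markers of other cells were read beside Pnpla2. Summed intensities of 15 fat cell genes were 11490 to 13000 in Dysf_null QF and 10550 to 11990 in Control QF, and 7795 to 9145 in Dysf_null TA and 6448 to 7650 in Control TA, and none of the 15 was called for genotype without the block; 2 of the 15, Fabp4 and Lipe, also stand in the lists of fatty acid use. With the block Car3 was called higher in TA (0.65, adjusted p = 0.0202, limma) and over both muscles (0.505, adjusted p = 0.00647). It was the brightest of the 15 on each Dysf_null TA array (log2 11.52, 11.67 and 12.03), against 10.58, 11.25 and 11.42 in Control TA. The TA sums therefore lean on Car3. Over the 15 genes, 10 differences were positive and 5 negative in TA, with a median of 0.09. Of 6 brown fat genes, Ucp1 was called higher in Dysf_null QF (1.63, adjusted p = 0.0181, limma). Their sums were 10520 to 10880 in Dysf_null QF and 10760 to 11000 in Control QF. In TA the sums were 9279 to 9960 in Dysf_null and 9597 to 10540 in Control. Cox8b and Cox7a1, the brightest of the 6 (log2 12.54 and 11.67 on Dysf_null QF array 1), also stand among the oxidative phosphorylation genes. These sums mostly follow those genes and do not read the amount of brown fat. The sums of 6 red cell genes were 21270 to 27570 in Dysf_null QF and 15960 to 16310 in Control QF, and 22870 to 26250 in Dysf_null TA and 11860 to 15780 in Control TA. Of these 6, 4 were called higher over both muscles: Alas2 (1.48), Bpgm (0.94), Car2 (0.71) and Hba-a1 (0.68). The sums of 15 macrophage genes were 4370 to 5041 in Dysf_null QF and 3382 to 4069 in Control QF, and 4046 to 4691 in Dysf_null TA and 3547 to 4219 in Control TA; Lyz2 was called higher over both muscles (0.70) and Cd68 was called lower in TA (-1.27). With the block C1qa was called higher over both muscles as well (0.61, adjusted p = 0.0024) and Cd68 lower (-0.555, adjusted p = 0.0174). Over both muscles 5 of 10 slow fibre genes were positive and 5 negative, with a median of 0.03. Of these Myl2 alone was called, higher (0.46). The part of fat cells, brown fat, red cells, macrophages, slow fibres and fast fibres in the Pnpla2 result was not tested.

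Cpt2, the inner membrane enzyme that releases carnitine and remakes the acyl-CoA, was lower on every Dysf_null array than on every Control array in QF. Its log2 intensities were 9.72, 9.69 and 9.73 in Dysf_null QF, against 10.02, 9.81 and 10.01 in Control QF. In TA they were 9.39, 9.75 and 9.70 in Dysf_null, against 9.65, 9.88 and 9.93 in Control, and those groups overlapped. The difference was -0.235 ± 0.135 (SE) in QF (adjusted p = 0.915, limma) and -0.221 ± 0.096 over both muscles (95% interval -0.43 to -0.01, adjusted p = 0.585; 0.0662 with the block). Cpt2 was therefore not called.

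Acadm, the medium-chain acyl-CoA dehydrogenase, was lower on every Dysf_null array in QF and overlapped in TA. It had log2 intensities of 11.35, 10.89 and 11.33 in Dysf_null QF, against 11.90, 11.43 and 11.40 in Control QF, without overlap. In TA it had 11.38, 11.43 and 11.68 in Dysf_null, against 11.38, 11.31 and 11.54 in Control, which overlapped. The difference was -0.39 ± 0.16 in QF (95% interval -0.74 to -0.03, adjusted p = 0.675, limma; 0.086 with the block) and 0.09 ± 0.16 in TA (-0.26 to 0.44, adjusted p = 1). The difference between the muscles was 0.48 ± 0.23 (-0.02 to 0.98, adjusted p = 1) and was not called. In all, 3 of the 7 genes (Pnpla2, Cpt2 and Acadm) were lower on every Dysf_null QF array, against 3.45% of all probe sets, and 1 of the 7 (Cd36) on every Dysf_null TA array, against 6.87%.

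Acadl, the long-chain dehydrogenase, was the most variable of the 7. Its log2 intensities were 8.99, 10.17 and 9.37 in Dysf_null QF, against 9.24, 10.54 and 9.90 in Control QF. The highest array of each QF group was the one numbered 2, 1 of the 2 arrays that stood apart. In TA it had 9.40, 9.12 and 8.71 in Dysf_null, against 9.30, 9.10 and 8.90 in Control. The difference was -0.38 ± 0.33 in QF (95% interval -1.1 to 0.34) and -0.02 ± 0.33 in TA, and neither was called (adjusted p = 0.985 in QF, limma).

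Hadh, which carries out the third step of the short- and medium-chain spiral, showed the smallest genotype difference. Its log2 intensities were 10.00, 10.10 and 10.28 in Dysf_null QF, against 10.09, 10.06 and 10.17 in Control QF. In TA they were 10.22, 10.14 and 10.50 in Dysf_null, against 10.16, 10.22 and 10.51 in Control. The groups overlapped in both muscles, and the average difference was 0.01 ± 0.10 (95% interval -0.21 to 0.22, adjusted p = 1, limma). Both Acadvl probe sets, for the very-long-chain dehydrogenase, were at or below the floor on all 12 arrays, with deposited intensities of 1.5 to 16 and 2 to 17.9, so its level was not read here. The same held for the second probe sets of Cd36 (0.5 to 2.7) and Cpt2 (0.6 to 11.2).

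Cd36, the fatty acid translocase of the cell membrane, was lower on every Dysf_null TA array than on every Control TA array. Its log2 intensities there were 7.485, 7.59 and 7.49 in Dysf_null, against 7.89, 7.705 and 7.82 in Control. In QF they were 6.98, 7.16 and 7.80 in Dysf_null, against 7.125, 7.44 and 8.03 in Control, with wide overlap. The difference was -0.28 ± 0.27 in TA (95% interval -0.87 to 0.31, adjusted p = 1, limma) and -0.22 ± 0.27 in QF.
Cd36 is also made by fat cells, endothelial cells and macrophages. The summed intensities of 13 endothelial genes were 2716 to 2986 in Dysf_null QF and 2387 to 2589 in Control QF, and 2470 to 2810 in Dysf_null TA and 2698 to 2979 in Control TA. Of their genotype differences 11 were positive and 2 negative in QF, and 4 positive and 9 negative in TA, with 0 called. The part of fat cells, endothelial cells and macrophages in the Cd36 differences was not tested.

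Fabp3, the cytosolic binding protein of heart and muscle, had a positive difference in QF that did not pass the test. Its log2 intensities were 11.65, 11.48 and 11.43 in Dysf_null QF, against 11.28, 11.18 and 11.47 in Control QF. In TA they were 11.45, 11.63 and 11.44 in Dysf_null, against 11.72, 11.50 and 11.51 in Control. The groups overlapped in both muscles, and the difference was 0.21 ± 0.12 in QF (95% interval -0.04 to 0.47, adjusted p = 0.892, limma) and -0.07 ± 0.12 in TA.

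**Figure D2:**
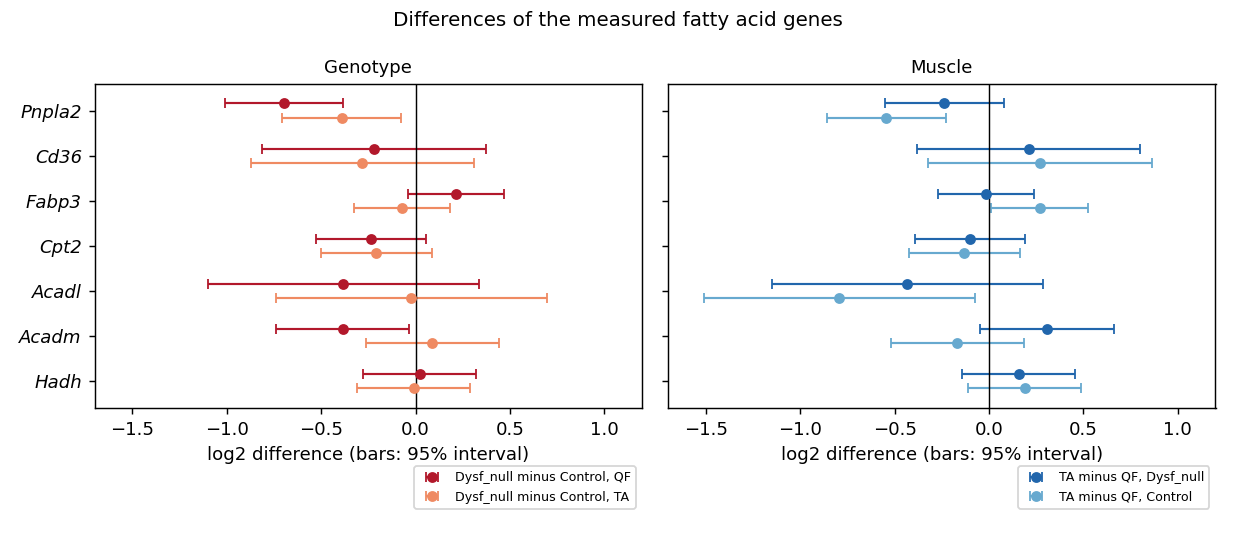
Log2 differences of the 7 measured genes with 95% intervals, Dysf_null minus Control in each muscle (left) and TA minus QF in each genotype (right). The interval of Pnpla2 lies below 0 in QF (-1.01 to -0.38) and in TA (-0.71 to -0.08), and that of Hadh spans 0 in both.

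The 7 genes as a whole had a median difference of -0.235 in QF, -0.07 in TA and -0.20 over both muscles, against -0.0117, -0.00266 and -0.0133 over all probe sets. Averaged over both muscles, 5 of the 7 were negative, against 52.4% of all probe sets. At an unadjusted p under 0.05, 2 of 7 genes passed in QF (Pnpla2 and Acadm), 1 in TA (Pnpla2) and 2 over both muscles (Pnpla2 and Cpt2), against 6.77%, 4.82% and 7.63% of all probe sets. Among themselves the 7 genes did not move as 1 block over the 12 arrays: the 21 pairs had a median correlation of 0.01, from -0.55 to 0.79, a description over arrays that share group and normalization. The genes most like the mean of the 7 over the 12 arrays were Kif3c (r = 0.894), Ktn1 (0.881), Cacul1 (0.88), Psmd11 (0.879), Eif2b1 (0.878) and Paip2b (0.876).

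Between the muscles, none of the 7 genes passed the test in either genotype, where 0.3% of all probe sets were called for TA minus QF in Dysf_null mice and 0.736% in Control mice. At an unadjusted p under 0.05, 0 of 7 genes passed in Dysf_null mice and 3 in Control mice (Pnpla2, Acadl and Fabp3), against 5.72% and 9.86% of all probe sets. In Control mice, Fabp3 was higher on every TA array than on every QF array, and Pnpla2 was lower on every TA array (8.16% and 5.6% of all probe sets). Pnpla2 differed by -0.54 ± 0.15 (adjusted p = 0.159), Acadl by -0.79 ± 0.33 (adjusted p = 0.457) and Fabp3 by 0.27 ± 0.12 (adjusted p = 0.478, all limma). Control QF array 2, which stood apart, had the highest Acadl value of its group (10.54). With each array left out in turn, the Acadl difference in Control mice ranged from -1.12 to -0.47. In Dysf_null mice the TA minus QF differences were -0.24 for Pnpla2, -0.43 for Acadl and -0.02 for Fabp3, and Acadm alone did not overlap, higher on every TA array (0.31 ± 0.16, adjusted p = 0.897, against 5.71% of all probe sets). Of 15 fat cell genes, 13 had negative TA minus QF differences in Dysf_null mice and 15 in Control mice, with 4 and 5 called lower, among them Adipoq (-1.12 in Dysf_null, -1.46 in Control), Pck1, Thrsp and Fasn in both and Cidec in Control mice. The brown fat genes Cidea (-3.70 in Dysf_null, -3.14 in Control) and Ucp1 were called lower too, and Ucp1 was at the floor on all TA arrays. Pnpla2, Acadl and Cd36 are also expressed in fat, and the part of fat cells in their muscle differences was not tested. No interaction of genotype and muscle was called for any of the 7, where 0.0678% of all probe sets were called, and 0 of 7 passed at an unadjusted p under 0.05, against 3.05%.

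The other genes of fatty acid use were read from lists written with earlier results of these data known. Of 119 genes, 82 were on the arrays and 81 were measured. Over both muscles 1 of the 81 was called, Plin4, a share near the 1.09% of all probe sets called, and 53 were negative, with a median of -0.09, where 52.4% of all probe sets were negative. In QF and in TA 0 were called by limma, with medians of -0.11 and -0.07; the block called 3 lower in QF (Mlycd, Plin4 and Acads, whose second probe set had 0.19 and was not called), 1 lower in TA (G0s2) and 5 lower over both muscles (Plin4, Lpin1, G0s2, Echs1 and Mlycd), none higher. The block called 0.958% of all probe sets lower in QF, 0.619% in TA and 1.88% over both.

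Among genes of uptake and binding, 10 were measured and 0 called, with a median of 0.01 over both muscles. Fabp5, a binding protein of fat and skin, had -0.30 (adjusted p = 0.7) and Vldlr, a lipoprotein receptor, -0.66 ± 0.34 (adjusted p = 0.739, limma). Lpl, which frees fatty acids from lipoproteins, was not called on its brighter probe set, and its second probe set had -0.58 over both muscles (adjusted p = 0.0989; 0.0209 with the block). Of the acyl-CoA genes 6 were measured and 0 called for genotype, with a median of -0.12; the synthetase Acsl5 had 0.38 (adjusted p = 0.79). Of the 3 carnitine shuttle genes, 0 were called. Cpt1a, the outer membrane transferase best known from liver, had log2 intensities of 7.23, 7.35 and 7.76 in Dysf_null QF, against 4.63, 6.29 and 6.96 in Control QF. In TA it had 7.56, 7.69 and 7.21 in Dysf_null, against 6.59, 6.61 and 7.28 in Control. The lowest Control QF value was close to the floor of 4.53. The TA groups overlapped, and the average difference was 1.08 ± 0.34 (adjusted p = 0.236, limma, and 0.051 with the block). Crat had -0.125, with 0.045 on its second probe set, and Slc25a20 had -0.135.

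Plin4, a coat protein of lipid droplets and a PPAR target, fell beside Pnpla2. Its log2 intensities were 8.17, 8.72 and 7.94 in Dysf_null QF, against 9.56, 9.31 and 9.02 in Control QF. In TA they were 8.03, 8.02 and 7.92 in Dysf_null, against 8.48, 8.72 and 8.53 in Control. No Dysf_null array reached a Control array of its muscle, and the average difference was -0.80 ± 0.15 (limma, adjusted p = 0.0191), with -1.02 ± 0.21 in QF (adjusted p = 0.0598; 0.00939 with the block) and -0.585 in TA (adjusted p = 0.673). The average was not called without any 1 of 5 arrays, Dysf_null QF 1, Dysf_null TA 2 or 3, or Control TA 2 or 3 (adjusted p 0.0527 to 0.0703).
Of 7 other genes of droplets and lipolysis 0 were called, with a median of 0.02. G0s2, the inhibitor protein of the Pnpla2 lipase, had 9.235, 9.16 and 9.30 in Dysf_null TA, against 10.24, 9.92 and 9.74 in Control TA, without overlap. In QF it had 8.84, 9.35 and 8.63 in Dysf_null, against 9.04, 9.29 and 8.67 in Control. Its difference was -0.73 in TA (adjusted p = 0.374; 0.0177 with the block) and -0.06 in QF (adjusted p = 1). The monoglyceride lipase Mgll had 0.47 (adjusted p = 0.481), with 0.06 on its second probe set, and the droplet coat Plin2 0.27 (adjusted p = 0.739) over both muscles.

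**Figure D3:**
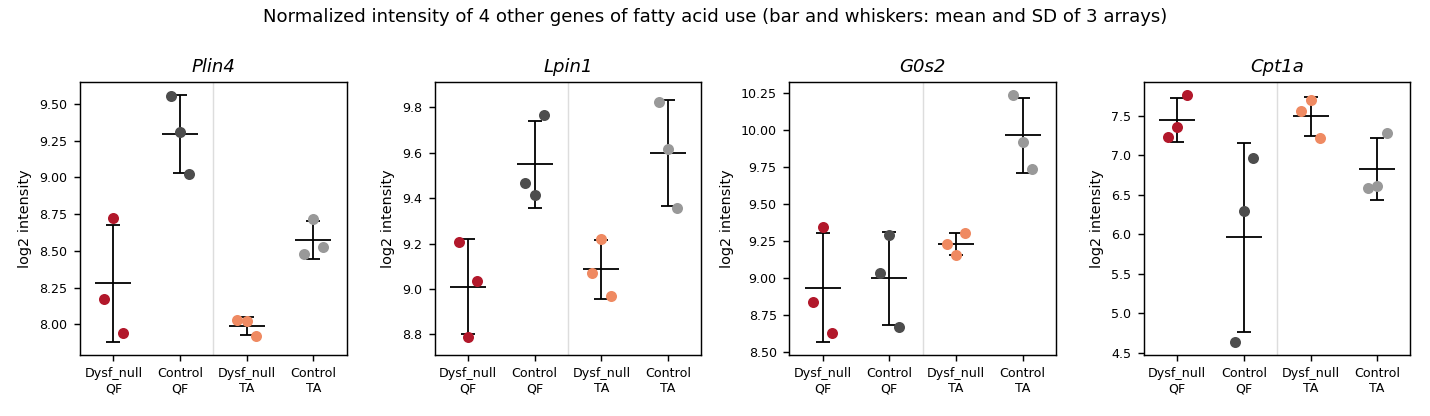
Normalized log2 intensity of Plin4, Lpin1, G0s2 and Cpt1a on the 12 arrays, by group; bars are means and whiskers SD (n = 3). Plin4 and Lpin1 are lower on every Dysf_null array than on every Control array of the same muscle, the same holds for G0s2 in TA, and the G0s2 arrays overlap in QF.

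Of 15 other genes of mitochondrial beta-oxidation 0 were called for genotype, with 12 of 15 negative and a median of -0.12 over both muscles. The electron transfer flavoprotein gene Etfa had -0.23 (adjusted p = 0.7), the enoyl-CoA hydratase Echs1 -0.41 (adjusted p = 0.729; 0.0453 with the block) and the isomerase Eci1 -0.17 (adjusted p = 0.954). Of 12 peroxisomal genes 0 were called, with a median of -0.08. The bifunctional enzyme Ehhadh had -0.28 and the carrier Scp2 -0.24. Ehhadh was close to the floor in TA, with means of 4.56 in Dysf_null and 4.81 in Control. The ketone-using enzyme Oxct1 had -0.10. Of 3 genes of malonyl-CoA and AMPK 0 were called: Mlycd, which breaks down the Cpt1 inhibitor malonyl-CoA, had -0.30 (adjusted p = 0.875; 0.0407 with the block).
Of 15 regulators 0 were called, with 11 negative and a median of -0.115. Lpin1, a phosphatidic acid phosphatase and transcriptional coactivator, had 9.205, 8.79 and 9.03 in Dysf_null QF, against 9.47, 9.41 and 9.77 in Control QF. In TA it had 9.07, 9.22 and 8.97 in Dysf_null, against 9.82, 9.62 and 9.36 in Control. The groups did not overlap in either muscle, a pattern of 0.697% of all probe sets, and the average difference was -0.53 ± 0.12 (adjusted p = 0.0589, limma; 0.00842 with the block). Ppargc1a had -0.34 and Esrrb -0.38, both far from the threshold (adjusted p = 0.994 and 0.942, limma). Both were at the floor of 4.53 on some arrays, Esrrb on all 3 of Dysf_null TA, so these differences are poorly read. Of 9 further PPAR targets, Plin4 included, 1 was called; Pdk4, which slows glucose oxidation, had -0.27 (adjusted p = 0.681) and Angptl4 -0.42 (adjusted p = 0.942).

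**Figure D4:**
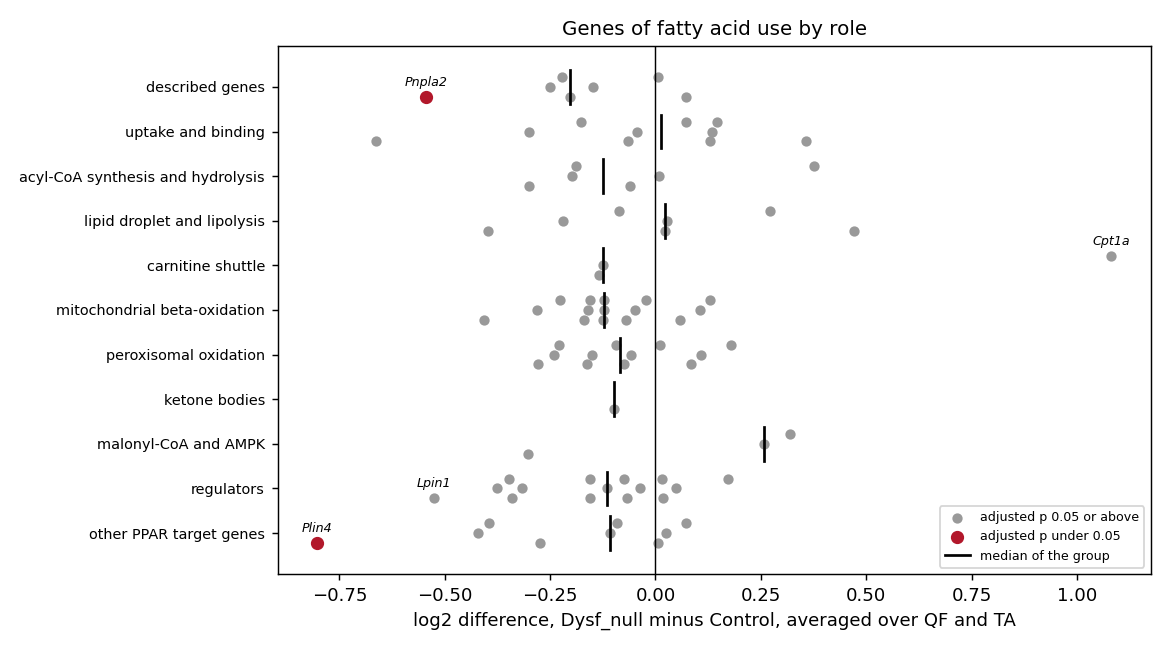
Log2 difference of each measured gene of fatty acid use, Dysf_null minus Control averaged over QF and TA, by role; each point is a gene, black lines are medians and red points have an adjusted p under 0.05. Only Pnpla2 (-0.54) and Plin4 (-0.80) are red, and Cpt1a (1.08) is the highest point.

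Oxidative phosphorylation and the citric acid cycle receive the products of beta-oxidation. Of 28 oxidative phosphorylation genes 0 were called over both muscles, and 26 were negative and 2 positive, with a median of -0.07, where 52.4% of all probe sets were negative; their summed intensities did not overlap: 130300 to 133500 in Dysf_null QF and 135100 to 138600 in Control QF, and 140200 to 141700 in Dysf_null TA and 147000 to 152700 in Control TA. Of 13 citric acid cycle genes 11 were negative and 2 positive, with a median of -0.07 and 0 called. Idh3b, 1 of the 13, was at the floor on most arrays. With the block 1 of the 13 was called lower, Pdha1 of the pyruvate dehydrogenase complex (-0.24, adjusted p = 0.0252, limma).

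Between the muscles of Control mice 1 of the 81 other genes was called, where 0.736% of all probe sets were called. Acss1, the mitochondrial enzyme that turns acetate into acetyl-CoA, was lower in TA, with 7.63, 7.31 and 7.64 in TA, against 8.54, 8.34 and 9.07 in QF (-1.12 ± 0.22, limma, adjusted p = 0.0373). Of the 12 fits that left out 1 array, 4 called it (adjusted p 0.0322 to 0.226). In Dysf_null mice 0 of the 81 were called, and Acss1 differed by -0.23 (adjusted p = 0.901). Of the others in Control mice, Pparg had -1.24 (adjusted p = 0.0724), G0s2 0.97 (adjusted p = 0.0614), Lipe -1.18 (adjusted p = 0.156), Lpl -0.62 (adjusted p = 0.116) and Slc25a20 0.695 (adjusted p = 0.176). Pparg, Lipe and Lpl are expressed in fat cells, Lipe is itself 1 of the 15 fat cell markers, and the part of fat cells in these differences was not tested.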

How the data were processed

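Linear intensities for each probe set were deposited by the authors; their trimmed means without the lowest and highest 2% were 199.9 to 200.4 on every array, so the deposited arrays had been scaled to a common mean. The software behind them is not given in the sources used here. Precision is limited by the number of arrays, 3 a group. Groups and replicate numbers came from the labels, and 0 sample columns were unmapped.

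The 66 control probe sets were left out of 12488. Deposited medians differed 1.47-fold between arrays, so values were quantile normalized, floored at the 25th percentile (23.025, log2 4.53) and put on the log2 scale; probe sets over the floor on 3 arrays or more were tested, 10331 in all. Probe sets were named from the platform annotation: 10833 of 12422 had 1 symbol, 396 several and 1193 none. A gene was read on its kept probe set of highest mean. The fit was limma 3.58.1 (R 4.3.3) with 4 group means on all 12 arrays (8 residual degrees of freedom, intensity trend, two-sided), with Benjamini-Hochberg adjustment over 10331 and calls at an adjusted p under 0.05. Comparisons (6 in all) took Dysf_null minus Control for QF, for TA and averaged, TA minus QF in Dysf_null and in Control mice, and the interaction. The script was tested on simulated data. Figures used Python 3.11.15 and matplotlib 3.10.9.

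Named were every chosen gene and probe set, each other pathway gene called, per list up to 3 genes of smallest p averaged and up to 2 for TA minus QF in Control, called markers, and the 6 genes most like the mean of the chosen genes; some that this rule allows are left out for length, and genes called only with the block were added after their values were seen. The genes and lists were chosen with earlier results of these data known.

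Same-numbered arrays of 1 muscle deviated together: their correlations over all probe sets were 0.39, 0.711 and 0.66 in QF and 0.182, 0.114 and 0.231 in TA. Arrays of different number had -0.581 to 0.0671 in QF and -0.224 to 0.0109 in TA. All same-numbered values were above 0.1, so the numbers were taken to pair the samples there. In TA this pairing is weak: in Dysf_null mice, arrays of different number and different muscle reached 0.268. The pairing was inferred from these same data. Alternatives covered scaling, floor, filter, trend, array weights, the block, and arrays left out.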

Additional observations from a re-analysis of the deposited data

Results flagged for a closer look

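Acads, the short-chain acyl-CoA dehydrogenase of beta-oxidation, had a genotype difference that differed between the muscles in the fit with the replicate block only. Its log2 intensities were 9.32, 9.75 and 9.26 in Dysf_null QF, against 9.84, 10.27 and 9.63 in Control QF. In TA they were 9.67, 9.63 and 9.76 in Dysf_null, against 9.275, 9.33 and 9.33 in Control. The QF groups overlapped. The difference in TA minus that in QF was 0.845 on the log2 scale, with an adjusted p of 0.826 from limma and 0.0268 with the replicate block, where 0.31% of all probe sets were called. With the block it was called lower in QF (-0.47, adjusted p = 0.0174), and in TA it had 0.37 (lowest adjusted p under any setting 0.0661). A second Acads probe set went the other way, with 0.19 in QF (adjusted p = 0.605 with the block), -0.00397 in TA and -0.19 for the interaction (adjusted p = 1, limma), so the pattern rests on 1 of 2 probe sets.

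Acss1 pointed opposite ways in the muscles, with neither genotype difference called. Every Dysf_null QF array was below every Control QF array (7.71, 8.23 and 8.07 against 8.54, 8.34 and 9.07), as for 3.45% of all probe sets. In TA it had 7.76, 7.77 and 7.80 in Dysf_null, against 7.63, 7.31 and 7.64 in Control. The difference between muscles was 0.893 (limma, adjusted p = 1), so it was not called. Groups of 3 arrays were not tested for outlying arrays.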

How the results depend on the processing

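Under 938 other values for the 7 genes, 0 of the 804 for genes other than Pnpla2 were called (lowest adjusted p 0.0662). The average difference of Pnpla2 was called in 7 of 10 settings; the count of called genes over both muscles was 0 with scaling to the 75th percentile (-0.61, adjusted p = 0.0807), without the intensity trend (-0.545, adjusted p = 0.133) and with both QF arrays numbered 2 left out (-0.56, adjusted p = 0.0617). Leaving out each array in turn gave 0 to 1 called over both muscles and 0 to 1 in QF (1 without Control QF 3, Pnpla2 -0.79, adjusted p = 0.0449), and 0 to 0 in the other comparisons; Pnpla2 ranged from -0.61 to -0.51. With the replicate block within muscle 1 gene was called in QF, Pnpla2. The 75th percentile scaling moved the median of the 7 genes to -0.245 in TA and 0.08 for TA minus QF in Control mice; leaving out each array, medians ranged from -0.31 to -0.12 in QF, -0.13 to -0.07 in TA, -0.21 to -0.16 over both, -0.02 to 0.18 for the interaction, and for TA minus QF -0.08 to 0.04 in Dysf_null and -0.20 to -0.01 in Control mice. Plin4 was not called over both muscles without the trend (adjusted p = 0.0582), and Lpin1 was called with the stricter filter (adjusted p = 0.0438). Acss1 between Control muscles was not called with 75th percentile scaling (0.0642), no filter (0.0511), no trend (0.0826) or a replicate block within genotype (0.105), where numbers did not pair the samples (correlations 0.0774, -0.141 and 0.123 in Dysf_null and -0.0122, -0.0931 and -0.00575 in Control). Over all probe sets, calls in QF numbered 47, with 16 under 75th percentile scaling, 7 without the trend, 23 with array weights, 273 under the block and 2 without both QF arrays numbered 2; a limma fit to QF arrays only called 0, while 406 probe sets had an unadjusted p under 0.05. Calls in TA numbered 42, with 28 without the filter, 28 without the trend, 192 with array weights and 159 under the block. Calls over both muscles numbered 113, with 64 under 75th percentile scaling, 56 without the trend, 191 with array weights and 474 under the block. For the interaction they numbered 7, and 32 under the block. For TA minus QF they numbered 31 in Dysf_null mice, with 52 under array weights and 18 under the block within genotype, and 76 in Control mice, with 38 under 75th percentile scaling, 42 without the trend and 32 under that block. Without quantile normalization the median of all probe sets for TA minus QF in Control mice was -0.10. The causes were not tested. Acadvl was tested with the 10th percentile floor, and was not called there; without the filter it entered the fit at the floor on all 12 arrays, so it could not be called.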

Other observations

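All 13 measured genes of the citric acid cycle had positive TA minus QF differences in Dysf_null mice (median 0.28) and in Control mice (median 0.22). Over all probe sets, 47.8% and 49.9% were lower in TA. Of the 13 genes 0 were called, and the lowest adjusted p in Control mice was 0.0994 (Pdhb, 0.51, limma). Idh3b, 1 of the 13, was at the floor on most arrays, so its sign is poorly read. Sdhd, a subunit of respiratory complex II, was called higher in TA in both genotypes (0.52 in Dysf_null, 0.635 in Control), and so was the oxygen store Mb (0.74 in Dysf_null, 0.99 in Control). Mb is itself 1 of the 10 slow fibre genes. Of these 10, 8 were negative and 2 positive for TA minus QF in each genotype. Their medians were -0.596 in Dysf_null and -0.471 in Control mice. The slow fibre genes Myl2 in Dysf_null mice (-0.72) and Tpm3 in Control mice (-0.56) were called lower in TA. The macrophage gene Cd68 was called higher in TA of Control mice (1.60). The 7 fatty acid genes had medians of -0.02 in Dysf_null mice and -0.13 in Control mice in the same comparison.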
